A study of Mus musculus with 6 samples.

Results

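Tight junction genes were compared between mouse mammary tumour explant cells carrying a short hairpin RNA against CdGAP (shCdGAP, genotype CdGAP KD, 3 libraries) and the same kind of cells carrying a control hairpin (shCTL, genotype WT, 3 libraries). The set held 9 genes chosen by symbol, out of 41214 genes in each deposited count table: the membrane protein genes Ocln, F11r, Cldn3, Cldn7 and Epcam and the plaque protein genes Tjp1, Tjp3, Cgn and Cgnl1. All 6 libraries came from explant cells of a mammary tumour derived from NMuMG, an epithelial line first grown from healthy mammary tissue of a mouse, and the cells expressed ErbB2, a receptor tyrosine kinase that drives a class of breast cancers. CdGAP, encoded by Arhgap31, is a GTPase-activating protein for Rac1 and Cdc42, and the series title names it as a partner of the repressor Zeb2 at the E-cadherin gene. Whether the cells of each group were a pool or 1 clone, and how many hairpin sequences were used, is not given in the sources used here.

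A tight junction seals the gap between neighbouring epithelial cells at the border of their apical and lateral sides. Claudins form its strands and set which ions pass, occludin and the immunoglobulin-like protein JAM-A lie beside them in the membrane, and the ZO scaffolds tie these proteins to actin. Cingulin and paracingulin bind the scaffolds from the cytoplasm and bring regulators of small GTPases to the junction. EpCAM is an epithelial surface glycoprotein that associates with claudin-7 and steadies claudins at the membrane, and claudin-3, claudin-7 and EpCAM are commonly used markers of mammary epithelium.

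Totals of 22088774 to 25893195 fragments were counted in shCdGAP libraries and 19176540 to 26824249 in shCTL libraries. Arhgap31, the targeted gene, was at 1.7, 9.15 and 8.2 counts per 1e+06 counted fragments (CPM, scaled between libraries) in shCdGAP replicates 1 to 3, against 13.2, 14.4 and 15.1 CPM in shCTL. The groups did not overlap, and the fitted log2 fold change of −1.16 ± 0.55 (SE) did not pass the edgeR test (adjusted p = 0.19), though it did without shCdGAP replicate 1 (−0.71, adjusted p = 0.00407). That library stood apart from its replicates along the second principal component (21.7% of the variance), so values without it are given where a call or a direction of a named gene changed. The epithelial label was checked on markers. Keratins of simple epithelium were abundant in both groups: Krt8 averaged 4470 ± 1405 CPM in shCdGAP and 3609 ± 805 CPM in shCTL (SD, n = 3 each), and Krt18 averaged 3430 ± 740 and 3040 ± 474 CPM in the same order. Krt8 passed the test without shCdGAP replicate 1 (log2 fold change 0.56, edgeR adjusted p = 0.0368). The 8 luminal markers summed to 7249 to 11029 CPM in shCdGAP and 5908 to 8416 CPM in shCTL, although the luminal regulator Elf5 and the surface marker Prom1 had at most 2 counts in any library. Krt8 and Krt18 made up most of these sums. All 6 tested luminal markers had a positive log2 fold change, as did 6861 of all 13483 tested genes. Of the 6, 3 rose, beside 10.4% of all tested genes. They were Muc1, a mucin of the apical surface (2.86 ± 0.25, 7.28-fold, edgeR adjusted p = 0.000868), Cdh1 (1.72 ± 0.194, adjusted p = 0.00193) and the keratin gene Krt7 (1.58 ± 0.318, adjusted p = 0.016). The Krt7 call was lost without shCdGAP replicate 2 or any one shCTL library (adjusted p = 0.056 to 0.077). The 6 basal markers summed to 0.0453 to 0.158 CPM in shCdGAP and 1.19 to 1.69 CPM in shCTL, with Acta2 at 0 in all libraries. The sums were 3.41 to 7.06 against 5.35 to 6.29 CPM for 8 fibroblast markers (Lum and Thy1 at 0 throughout), 5.15 to 17 against 18.4 to 23.2 CPM for 7 leukocyte markers (Adgre1 and Tyrobp at 0), 0 to 0.158 against 1.05 to 1.24 CPM for 5 endothelial markers (Emcn at 0) and 0.179 to 0.634 against 1.45 to 2.53 CPM for 3 adipocyte markers (Plin1 at 0), shCdGAP first in each. In these bulk libraries a change in the number of cells that express a gene and a change in RNA per cell cannot be told apart, and whether replicates were separate cultures is not stated, so the spread that the p-values rest on may be technical. Krt5 among the basal markers fell, as did 1 endothelial and 1 adipocyte marker, each the only tested gene of its list. Over all tested genes 11.4% fell. Each of these markers reached the filter on low counts in every shCTL library but not in every shCdGAP library, so the filter itself favoured a fall. The leukocyte, basal, endothelial and adipocyte sums were lower in every shCdGAP library than in any shCTL library. Of all tested genes, taken singly, 44.1% did not overlap between the groups in either direction. The leukocyte sum rested mostly on Cd68, a lysosomal protein gene, at 10.9, 5.53 and 2.93 CPM in shCdGAP, against 21.7, 15.4 and 15.6 CPM in shCTL. Cd68 was not called (log2 fold change −1.45 ± 0.46, edgeR adjusted p = 0.0709), but passed with the replicate number as a block (adjusted p = 0.0322), without shCdGAP replicate 1 (−2.05, adjusted p = 0.000899), with no filter (0.0405) and with DESeq2 (0.00835). The other tested leukocyte marker, the receptor gene Csf1r, was at 5.67, 4.17 and 1.74 CPM in shCdGAP, against 1.03, 2.18 and 2.41 CPM in shCTL, with a positive log2 fold change that was not called (1.03 ± 0.505, adjusted p = 0.206). The part of these markers, the luminal ones included, in the results on junction genes was not tested.

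Promoter sequences are shown for 3 members that rose and the 1 that fell, because the study concerns repression at promoters. Each runs 5′ to 3′ on the strand of the gene over the 250 bases before a RefSeq start in GRCm38.p6. Capitals mark CAGGTG or its reverse complement CACCTG, the E-box form that Zeb and Snail family repressors bind, and ACCGGT, the palindromic core of the site of Grainyhead-like factors. These motifs did not overlap each other in the windows shown.
Ocln, first start, chr13:100552719-100552968, minus strand: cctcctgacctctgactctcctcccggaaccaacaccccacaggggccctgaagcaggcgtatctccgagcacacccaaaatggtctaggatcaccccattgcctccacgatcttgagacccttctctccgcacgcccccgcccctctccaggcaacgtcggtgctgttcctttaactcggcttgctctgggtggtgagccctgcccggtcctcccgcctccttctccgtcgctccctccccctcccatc
Cgn, chr3:94786483-94786732, minus strand: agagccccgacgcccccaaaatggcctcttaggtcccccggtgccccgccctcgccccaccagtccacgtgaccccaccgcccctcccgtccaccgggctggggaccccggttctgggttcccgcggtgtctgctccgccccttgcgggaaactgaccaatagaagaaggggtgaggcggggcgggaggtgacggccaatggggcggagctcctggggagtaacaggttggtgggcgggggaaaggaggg
Tjp3, first of 2 starts, chr10:81291582-81291831, minus strand: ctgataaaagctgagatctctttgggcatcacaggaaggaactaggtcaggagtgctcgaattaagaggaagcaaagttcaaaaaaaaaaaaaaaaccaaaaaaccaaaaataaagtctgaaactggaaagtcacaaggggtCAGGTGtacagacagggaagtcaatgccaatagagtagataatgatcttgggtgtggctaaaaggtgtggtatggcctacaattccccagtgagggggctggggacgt
Epcam, chr17:87635729-87635978, plus strand: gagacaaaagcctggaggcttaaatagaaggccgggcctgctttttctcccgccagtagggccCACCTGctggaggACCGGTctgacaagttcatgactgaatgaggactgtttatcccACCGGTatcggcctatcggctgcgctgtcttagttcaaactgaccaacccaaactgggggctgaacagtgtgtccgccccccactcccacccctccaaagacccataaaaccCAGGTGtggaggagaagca

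The 9 members had 12 RefSeq starts between them. An E-box of this form lay before at least 1 start in 5 members, Ocln, Tjp3, F11r, Cldn7 and Epcam, and in 17.2% of the 32851 windows of all genes (19.4% of 27025 genes had one before some start). The Ocln window shown held none, and the window of its other start held 2, which lay 213 to 208 and 68 to 63 bases before that start. The Tjp3 window shown held one 108 to 103 bases before the start, and that of its other start held one at 17 to 12 bases. The Epcam window held E-boxes at 187 to 182 and 19 to 14 bases before its start. It also held the ACCGGT core at 174 to 169 and at 131 to 126 bases, which was in no window of the other members and in 1.86% of all windows. The windows differed in base composition: 70.4% of bases were G or C before Cgn, 70.8% before Cgnl1, 56.4% before Epcam and 43.2% before the Tjp3 start shown, against a median of 52.4% over all windows. The E-box was thus found before some start of Ocln and Tjp3, which rose, but not before Cgn, which also rose. It was also found before F11r, which did not pass the test, and before Epcam, which fell. A match in these windows is a description of the sequence and not a binding site.

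Of the 9 genes, 7 had enough counts to be tested. Ocln, Cgn and Tjp3 rose in shCdGAP, Epcam fell, and Tjp1, F11r and Cgnl1 did not pass the test (edgeR quasi-likelihood test, adjusted p under 0.05). Over all 13483 genes tested 10.4% rose and 11.4% fell, so that 21.7% were called in either direction. The shares that rose and fell were 10.5% and 11.5% with DESeq2 size factors in edgeR, 9.12% and 12.9% with total count scaling, 5.9% and 7.33% with no filter on low counts, 9.33% and 8.85% with a mean of 10 CPM or more, 14.1% and 14.5% with DESeq2 and 9.47% and 10.9% with the replicate number as a block. The groups did not overlap for 5 of the 7, the 4 called genes and Tjp1, against 44.1% of all tested genes. Their median log2 fold change was 0.46, that of Tjp1, against 0.01 over all tested genes. The median is the same with Epcam, which had no count in shCdGAP, placed at its bound.

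**Figure D1:**
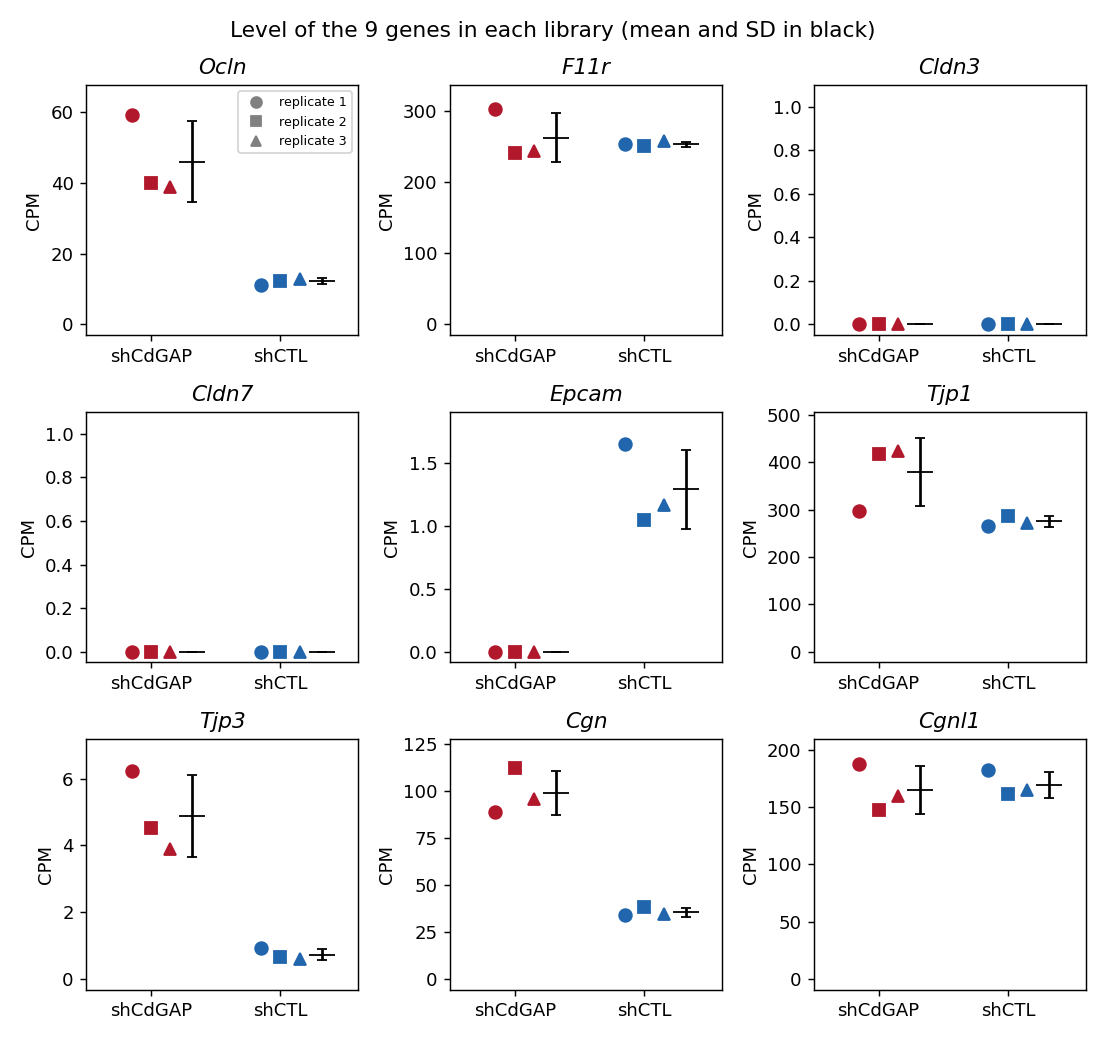
Level of each of the 9 genes in CPM (y axis, a separate linear scale in each panel) in the 3 shCdGAP and 3 shCTL libraries, with the mean and SD beside the points. Ocln, Tjp3 and Cgn lie higher in every shCdGAP library than in any shCTL library, Epcam lies at 0 in shCdGAP, and Cldn3 and Cldn7 lie at 0 in all 6 libraries.

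Ocln encodes occludin, a membrane protein with tetraspan topology of the MARVEL family, and lies at chr13:100496507-100552718 (GRCm38, as are all gene coordinates here). Its level was 59, 40 and 38.8 CPM in shCdGAP replicates 1 to 3, against 11.2, 12.3 and 12.9 CPM in shCTL replicates 1 to 3. Every shCdGAP library was above every shCTL library, and replicate 1 was the highest of the shCdGAP libraries. The mean was 45.9 ± 11.3 CPM in shCdGAP and 12.1 ± 0.835 CPM in shCTL (SD, n = 3 each), a 3.79-fold difference, with a log2 fold change of 1.92 ± 0.199 (edgeR adjusted p = 0.00145). Without shCdGAP replicate 1 it was 1.71 (adjusted p = 1.89e-05). The other members of the MARVEL family in the junction, Marveld2 (tricellulin, which seals the corners where cells meet) and Marveld3, had at most 3 counts in any library. Ocln therefore made up 99.3% to 99.8% of the summed length-normalised level of these genes in shCdGAP and 98.2% to 98.9% in shCTL. The nearest tested genes on chromosome 13 were not called: Gtf2h2, a subunit of a general transcription factor, had a log2 fold change of 0.31 ± 0.118 (edgeR adjusted p = 0.117), and Rad17, a checkpoint gene on the other side, 0.16 ± 0.109 (adjusted p = 0.369).

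F11r encodes JAM-A, an immunoglobulin-like adhesion protein that recruits polarity proteins to young junctions, and lies at chr1:171437535-171464603. It had 302, 241 and 244 CPM in shCdGAP, against 253, 250 and 257 CPM in shCTL. Replicate 1 of shCdGAP was above all shCTL libraries and the other two were below them. The log2 fold change was 0.05 ± 0.118 (edgeR adjusted p = 0.801), and it was −0.05 without shCdGAP replicate 1 and −0.01 with libraries scaled by total count alone. Related adhesion genes were either close to 0 or, like Cxadr, expressed with overlapping groups. Cxadr, the coxsackievirus and adenovirus receptor, averaged 185 ± 42 CPM in shCdGAP and 169 ± 17.8 CPM in shCTL (n = 3 each, log2 fold change 0.13 ± 0.18, edgeR adjusted p = 0.65), and its log2 fold change was −0.06 without shCdGAP replicate 1. Jam3 had no count in any library. Jam2 had 1 count in all shCdGAP libraries together and 25 in shCTL, where replicate 1 had none.

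Cldn3 (chr5:134986214-134987472) and Cldn7 (chr11:69964779-69967885), claudins of many epithelia, had 0 counts in each of the 6 libraries. With 0 counts the level could still reach 0.116 to 0.136 CPM in shCdGAP libraries and 0.112 to 0.156 CPM in shCTL libraries. These bounds take 3 counts per library, cover counting error only and use total counts without the scaling between libraries. Neither gene could be tested, and no difference between the groups was detectable for them. Of the 23 claudin genes in the files, 10 had 0 counts in all libraries and 6 were tested. Of these 6, 0 rose and 2 fell, beside 10.4% and 11.4% of all tested genes. The 2 that fell reached the filter on low counts in every shCTL library but not in every shCdGAP library. They were thus tested through the group where they were high, and the filter itself favoured a fall.

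The claudin that these cells did express at a high level was Cldn2, a channel-forming claudin that lets small cations and water through. Its level was 1172, 883 and 831 CPM in shCdGAP, against 697, 830 and 842 CPM in shCTL. The groups overlapped, with shCdGAP replicate 1 the highest and shCTL replicate 1 the lowest of the 6. The log2 fold change was 0.29 ± 0.164 (edgeR adjusted p = 0.272), and 0.13 without shCdGAP replicate 1 (adjusted p = 0.352). In CPM per kilobase of exon length (FPKM), which allows genes of different length to be compared, Cldn2 averaged 289 ± 55.2 FPKM in shCdGAP and 238 ± 24.2 FPKM in shCTL, and made up 91.3% to 93.8% of the summed claudin level in shCdGAP and 87.2% to 90.8% in shCTL. Cldn12, an atypical claudin, was next, at 94, 101 and 92.9 CPM in shCdGAP and 91.3, 90.6 and 87.4 CPM in shCTL (log2 fold change 0.1 ± 0.0898, edgeR adjusted p = 0.505). Its groups did not overlap, though they differed by little.

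The claudins that fell were the neighbours Cldn6 and Cldn9 on chromosome 17, which belong to opposite strands and were counted apart. Cldn6, an embryonic claudin, was at 0.179, 0.408 and 0.555 CPM in shCdGAP, against 5.98, 2.65 and 2.67 CPM in shCTL (log2 fold change −3.27 ± 0.53, edgeR adjusted p = 0.00739). Cldn9, known for its role in the inner ear, was at 0.491, 0.317 and 0.515 CPM in shCdGAP, against 5.1, 2.65 and 2.59 CPM in shCTL (−2.94 ± 0.399, adjusted p = 0.00391). Both were at low levels, and shCTL replicate 1 had the highest value of each. Cldn23, which did not pass the filter on low counts, had 3 counts in all shCdGAP libraries and 40 in shCTL (ratio 12.6, exact 95% interval 4.03 to 63.9). Cldn4 and Cldn1, epithelial claudins of glands and of skin, had at most 3 and 2 counts in any library.

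**Figure D2:**
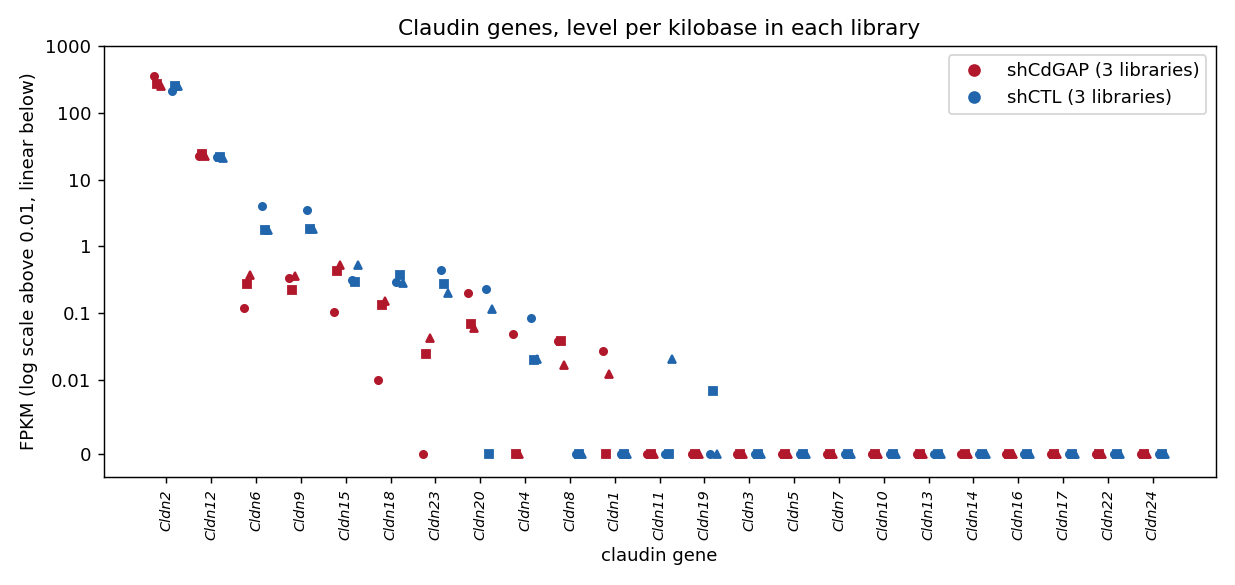
Level of the 23 claudin genes in FPKM (y axis, log scale above 0.01 and linear below) in each library, ordered by mean level, with shCdGAP to the left of shCTL for each gene. Cldn2 and Cldn12 lie above all other claudins in both groups, Cldn6 and Cldn9 lie lower in shCdGAP, and 10 genes, Cldn3 and Cldn7 among them, lie at 0 throughout.

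Epcam (chr17:87635979-87651106) had 0 counts in all 3 shCdGAP libraries, against 32, 29 and 31 counts in shCTL replicates 1 to 3. In shCTL that was 1.65, 1.05 and 1.17 CPM, a mean of 1.29 ± 0.317 CPM (SD, n = 3), a low level. It was at least 29.1-fold lower in shCdGAP, with 3 counts over the group taken as the floor, and it passed the edgeR test (adjusted p = 0.00344). It stayed under the threshold without any single library (adjusted p = 0.000583 to 0.0215) and with the replicate number as a block (adjusted p = 0.0288). Epcam met the filter on low counts through the shCTL libraries alone, so a fall was the only call open to it in these fits. Of the nearest tested genes at lower coordinates, Calm2, a calmodulin gene that shares much sequence with other calmodulin genes, rose (log2 fold change 0.82 ± 0.192, edgeR adjusted p = 0.0267), and Ttc7 was not called (0.58 ± 0.18, adjusted p = 0.0663). The Calm2 call was lost without any one library other than shCdGAP replicate 1 (adjusted p = 0.0681 to 0.104), and Ttc7 passed without that library (0.75, adjusted p = 0.00123) and with DESeq2 (adjusted p = 0.0337).

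Other genes tied to EpCAM were either near 0 or did not fall. St14, the membrane protease matriptase that cleaves EpCAM, had at most 1 count in any library, and its inhibitor gene Spint1 at most 4. Spint2, which encodes another inhibitor of matriptase, rose: it was at 243, 178 and 178 CPM in shCdGAP, against 114, 131 and 130 CPM in shCTL (log2 fold change 0.67 ± 0.155, edgeR adjusted p = 0.0254). That call was lost with the replicate number as a block (adjusted p = 0.0595) and without any one shCTL library (adjusted p = 0.0786 to 0.0897). Tspan8, a tetraspanin found in complexes with EpCAM and claudin-7 in rat and human tumour cells, was at 173, 185 and 196 CPM in shCdGAP, against 32.7, 36.9 and 38.1 CPM in shCTL. It rose 5.15-fold (log2 fold change 2.36 ± 0.112, edgeR adjusted p = 0.00016). Of the 10 genes listed as EpCAM relatives and partners, 7 were tested. Of these 7, 2 rose and 0 fell, beside 10.4% and 11.4% of all tested genes. The protease genes Adam17 and Bace1 and the adaptor gene Fhl2 were not called, with log2 fold changes of −0.13 to −0.11, that of Adam17 being 0.04 without shCdGAP replicate 1. Psen2, a presenilin gene, was at 10.5, 4.35 and 4.56 CPM in shCdGAP, against 5.88, 7.2 and 7.03 CPM in shCTL. Replicate 1 lay above all shCTL libraries and the other two below them, so the log2 fold change was −0.06 ± 0.37 (edgeR adjusted p = 0.935) with it and −0.58 (adjusted p = 0.0263) without it.

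Among the scaffolds, Tjp1 and Tjp3 encode ZO-1 and ZO-3, PDZ proteins that bind the tails of claudins. Tjp3 (chr10:81273207-81291267) was at 6.25, 4.53 and 3.88 CPM in shCdGAP, against 0.928, 0.655 and 0.602 CPM in shCTL. All shCdGAP libraries were above all shCTL libraries, and replicate 1 was the highest in each group. It rose 6.72-fold (4.89 ± 1.22 CPM in shCdGAP and 0.728 ± 0.175 CPM in shCTL, SD, n = 3 each), with a log2 fold change of 2.75 ± 0.302 (edgeR adjusted p = 0.00177). Tjp1 (chr7:65296165-65371239) was at 297, 418 and 423 CPM in shCdGAP, against 266, 287 and 272 CPM in shCTL. The groups did not overlap, but shCdGAP replicate 1 lay close to the shCTL libraries and the other two well above them. Its log2 fold change was 0.46 ± 0.155 (edgeR adjusted p = 0.0814). Without shCdGAP replicate 1 it was 0.62 and passed (adjusted p = 0.000531), and under no other alternative did it pass. Arhgap31 was lowest in that same library, whose part in this result was not tested.

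Cgn and Cgnl1 encode cingulin and its paralogue paracingulin, coiled-coil proteins of the junction plaque that bind RhoA and Rac1 exchange factors. Cgn (chr3:94760069-94786492) was at 89, 112 and 95.6 CPM in shCdGAP, against 33.7, 38.1 and 34.6 CPM in shCTL. The groups were far apart, and replicate 2 was the highest in each. It rose 2.79-fold (log2 fold change 1.48 ± 0.126, edgeR adjusted p = 0.000797), the smallest adjusted p of the tested members. Cgnl1 (chr9:71626509-71771602) was at 188, 147 and 160 CPM in shCdGAP, against 182, 161 and 165 CPM in shCTL, with full overlap of the groups. Its log2 fold change was −0.03 ± 0.125 (edgeR adjusted p = 0.886), and its sign turned without shCdGAP replicate 2 (0.05) or shCTL replicate 1 (0.01). Per length, Cgn made up 38.2%, 49.9% and 43.8% of the 2 genes together in shCdGAP, against 19.5%, 23.6% and 21.5% in shCTL. Each shCdGAP library had a larger share of Cgn than any shCTL library (44% ± 5.85 against 21.5% ± 2.05, SD, n = 3 each, exact two-sided permutation p = 0.1, the smallest that this design allows).

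**Figure D3:**
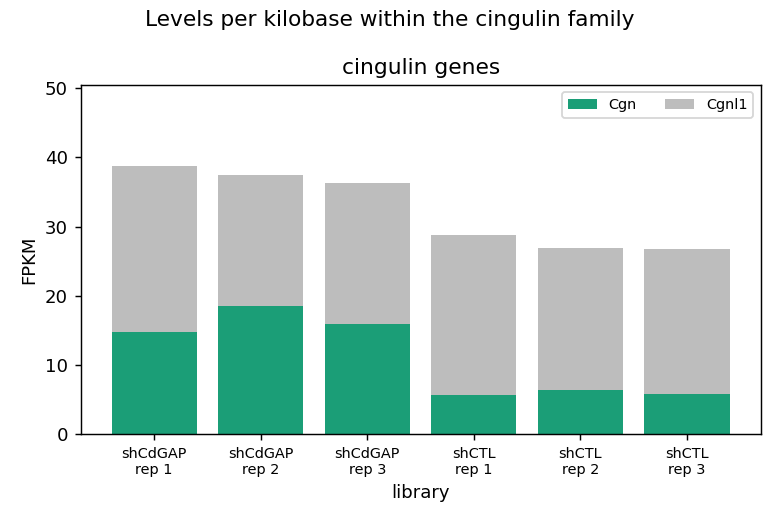
Level in FPKM (y axis) of the cingulin genes, stacked by gene, in each of the 6 libraries. The Cgn segment is larger in the 3 shCdGAP libraries, at 14.8 to 18.6 FPKM, than in the 3 shCTL libraries, at 5.61 to 6.34 FPKM.

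Per length, the order of the members by mean level was the same down to the fifth place in both groups: F11r, Tjp1, Cgnl1, Cgn and Ocln. F11r averaged 98.5 ± 12.8 FPKM in shCdGAP and 95 ± 1.35 FPKM in shCTL, and Ocln 10.9 ± 2.68 and 2.87 ± 0.198 FPKM in the same order of groups. Cgn stood close under Cgnl1 in shCdGAP (16.5 ± 1.97 and 21.1 ± 2.69 FPKM) and far under it in shCTL (5.9 ± 0.382 and 21.5 ± 1.41 FPKM). Over the libraries of a group, the ranges of detected members did not overlap. The closest were Cgn and Cgnl1 in shCdGAP, where the highest Cgn value was 18.6 and the lowest Cgnl1 value 18.8 FPKM. Tjp3 came sixth in shCdGAP, at 1.62 ± 0.405 FPKM, above 3 genes at 0. In shCTL Epcam, at 0.632 ± 0.155 FPKM, stood above Tjp3, at 0.241 ± 0.0579 FPKM.

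The 3 shCdGAP libraries did not move the members by equal amounts. Against the shCTL mean, on the log2 CPM scale with a prior count of 2, Ocln differed by 2.28, 1.72 and 1.67 in replicates 1 to 3 and Tjp3 by 2.99, 2.53 and 2.31. Replicate 1 was thus the highest of the 3 for both. Tjp1 differed by 0.11, 0.6 and 0.62 and Cgn by 1.33, 1.66 and 1.43, with replicate 1 the lowest for both.

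Wider lists of junction genes held 68 further symbols, of which 66 were in the files and 41 were tested. Of these 9 rose and 5 fell, against 10.4% and 11.4% of all tested genes. These counts depended on which libraries entered, as did the share of all genes called. Without shCdGAP replicate 1, 13 rose and 11 fell, beside 19.9% and 21.9% of all tested genes. Without shCdGAP replicate 2, 5 rose and 4 fell (5.95% and 6.94% of all), and without shCdGAP replicate 3, 8 rose and 6 fell (8.96% and 9.19%). Without shCTL replicate 1, 5 rose and 4 fell (5.74% and 7.65% of all), without replicate 2, 4 and 3 (3.95% and 6.28%), and without replicate 3, 4 and 5 (4.13% and 6.55%).

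Of 6 tested genes among the other membrane proteins, Crb3 and Lsr rose and Clmp fell, beside 10.4% and 11.4% of all tested genes. The median log2 fold change of the 6 was 0.34, against 0.01 over all tested genes. Crb3, a Crumbs protein of the apical membrane, was at 7.64, 6.07 and 4.6 CPM in shCdGAP, against 0.258, 0.836 and 0.677 CPM in shCTL. It rose 10.3-fold (log2 fold change 3.32 ± 0.424, edgeR adjusted p = 0.00317). Lsr, which encodes angulin-1, the protein that brings tricellulin to cell corners, was at 190, 228 and 224 CPM in shCdGAP, against 104, 140 and 147 CPM in shCTL (0.71 ± 0.16, adjusted p = 0.0232). The Lsr call was lost without any one library other than shCdGAP replicate 1 (adjusted p = 0.0521 to 0.0818). Clmp, a low-abundance adhesion protein gene of the same superfamily as F11r, had 1 count in all shCdGAP libraries and 57 in shCTL (ratio 54.1, exact 95% interval 9.32 to 2172, edgeR adjusted p = 0.00283). The other angulin gene with appreciable counts, Ildr2, was at 38.1, 132 and 150 CPM in shCdGAP, against 65.5, 78.1 and 74.4 CPM in shCTL, and its shCdGAP libraries lay on both sides of shCTL. It was not called (log2 fold change 0.56 ± 0.464, edgeR adjusted p = 0.451), and passed without shCdGAP replicate 1 (0.97, adjusted p = 0.000236).

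All 12 genes of the other scaffolds were tested, with a median log2 fold change of 0.34. Of these 12, 4 rose and 2 fell, beside 10.4% and 11.4% of all tested genes. Patj, a scaffold with many PDZ domains that joins the Crumbs complex to ZO-3 and claudins, was at 51.8, 35.8 and 31.3 CPM in shCdGAP, against 7.32, 9.71 and 10.2 CPM in shCTL. It rose 4.37-fold (log2 fold change 2.13 ± 0.243, edgeR adjusted p = 0.00206). Mpdz, its paralogue, was at 17.6, 22.6 and 24.7 CPM in shCdGAP, against 42.5, 37.7 and 36.6 CPM in shCTL, and fell (−0.85 ± 0.161, adjusted p = 0.0131). The Mpdz call was lost without shCTL replicate 1 (adjusted p = 0.063) or 2 (0.0573). The 3 angiomotin genes, whose products bind PATJ and YAP at the junction, did not move as one: Amot (0.9 ± 0.198, edgeR adjusted p = 0.0223) and Amotl2 (0.71 ± 0.142, adjusted p = 0.0162) rose, and Amotl1 (−0.57 ± 0.116, adjusted p = 0.0171) fell. Each of these 3 calls was lost without shCdGAP replicate 2 or any one shCTL library (adjusted p = 0.0545 to 0.0978). The fourth gene to rise was Afdn, which encodes afadin, a linker of nectins to actin (0.45 ± 0.101, edgeR adjusted p = 0.0234). The Afdn call was lost without shCdGAP replicate 2 or shCTL replicate 2 or 3 (adjusted p = 0.0822 to 0.123).

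The 10 plaque signalling genes were all tested, with a median log2 fold change of −0.02. Of these 10, 1 rose and 0 fell, beside 10.4% and 11.4% of all tested genes. The gene that rose was Arhgef18, which encodes the RhoA exchange factor p114RhoGEF, a partner of cingulin. It was at 90.3, 85.7 and 80.3 CPM in shCdGAP, against 48.5, 53.2 and 51.6 CPM in shCTL (log2 fold change 0.74 ± 0.0998, edgeR adjusted p = 0.00382). Arhgef2, the gene of GEF-H1, the other RhoA exchange factor held by cingulin, averaged 124 ± 7.61 CPM in shCdGAP and 127 ± 7.43 CPM in shCTL (n = 3 each, edgeR adjusted p = 0.865). Of the remaining genes, Ybx3, which encodes a Y-box factor that ZO-1 binds, had its shCdGAP libraries on both sides of shCTL, at 156, 248 and 308 CPM in shCdGAP against 271, 239 and 240 CPM in shCTL. Its log2 fold change was −0.08 ± 0.241 (edgeR adjusted p = 0.863), and 0.17 without shCdGAP replicate 1 (adjusted p = 0.286).

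**Figure D4:**
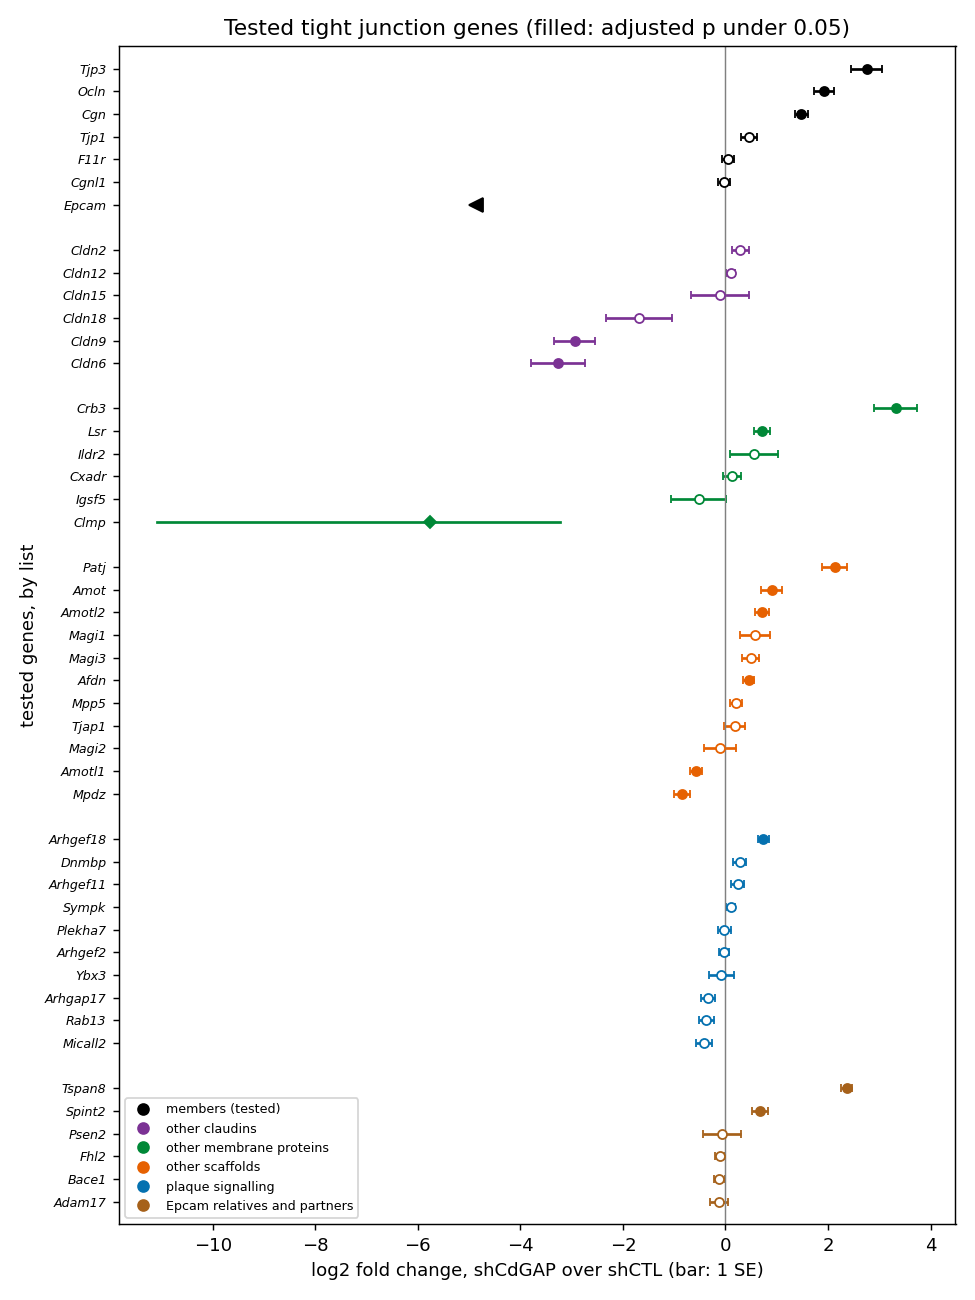
Log2 fold change, shCdGAP over shCTL (x axis, bars 1 SE), of the tested members and of tested genes from the 5 wider lists (rows, coloured by list), filled where the adjusted p was under 0.05. The triangle for Epcam marks the bound of 29.1-fold, the diamond for Clmp the count ratio of 54.1 with its exact 95% interval, and Cldn6 and Cldn9 are the called genes among the claudins.

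Cdh1, the E-cadherin gene that the study set out from, was at 859, 690 and 754 CPM in shCdGAP, against 173, 260 and 263 CPM in shCTL (log2 fold change 1.72 ± 0.194, edgeR adjusted p = 0.00193), a difference between those of Cgn and Ocln.

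Genes with a profile most like that of a member were sought among all tested genes for the 3 members with the smallest adjusted p, by the mean absolute distance of centred log2 CPM over the 6 libraries. For Cgn these were Tgm2, which encodes a protein-crosslinking transglutaminase, and the basement membrane gene Nid2, each at a distance of 0.08. For Ocln they were the RNA-binding protein gene Bicc1 and Klhdc8a, each at 0.04, and for Tjp3 the focal adhesion gene Tns1, at 0.05, and the ion channel gene Hcn3, at 0.09. Bicc1 was at 1040, 761 and 713 CPM in shCdGAP, against 197, 217 and 232 CPM in shCTL, so that replicate 1 was the highest shCdGAP library and the lowest shCTL library, as for Ocln.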

How the data were processed

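Per the file headers, the authors counted fragments per gene with featureCounts 1.4.6 on TopHat alignments, using the Ensembl release 77 annotation of GRCm38 and strand setting 2. The deposited values were raw counts. Also used were Cuffdiff 2.2.1, DESeq, TopHat2 2.0.14, Trimmomatic 0.30 and CASAVA 1.8, per the submitters' processing notes. Symbols from GENCODE M21 matched 40254 of 41214 gene IDs, and all 9 members matched.

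The counts were tested with edgeR 4.0.16 in R 4.3.3: filterByExpr (minimum count 10, minimum total 15), TMM scaling and the quasi-likelihood F test on all 6 libraries, with Benjamini-Hochberg adjustment over the 13483 genes tested. CPM are TMM-scaled, FPKM are CPM per kilobase of exon length, and an SE is the absolute log2 fold change over the square root of F. Folds against 0 counts took 3 counts over the group as floor, and for 1 to 3 counts in a group the ratio has an exact 95% interval, both covering counting error only. With a total of 19176540 to 26824249 counts, 1 count was worth 0.0373 to 0.0521 CPM before TMM scaling. On simulated counts for the 13483 genes the test called 30% of 2-fold and 85% of 4-fold changes, with 3.36% of its calls false. The changes were placed only in genes above a cut on mean count. The shares called therefore do not cover low genes such as Epcam and Clmp.

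Replicates of a group differed by more than sampling noise (chi-square per degree of freedom 3 or more). In shCdGAP it was 150 and 194 for replicate 1 with replicates 2 and 3, and 13.5 for replicates 2 and 3. The shCTL values were 26 and 26.9 for replicate 1 with replicates 2 and 3, and 3 for replicates 2 and 3. Same-numbered libraries deviated together from their group means (correlations 0.36, 0.29 and 0.25), so by rule the replicate number was tried as a block. Unlike numbers gave 0.25 (shCdGAP replicate 2 with shCTL replicate 3) and 0.19 (shCdGAP replicate 3 with shCTL replicate 2). Replicate 1 of either group gave −0.35 to −0.26 with other numbers. The values thus set replicate 1 apart and do not settle how replicates 2 and 3 pair. Blocked values stand beside the calls they change among the tested genes named. Alternatives were other scalings, filters, DESeq2 1.42.0, the replicate block and leaving out each library. Members and lists were chosen with earlier results of these data known. The text names the members, Arhgap31, Cdh1, up to 3 risen and 3 fallen genes of each wider list and the nearest profiles. The other genes named were chosen after their values were seen. Some genes of the wider lists are not reported here by name.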

Additional observations from a re-analysis of the deposited data

How the results depend on the processing

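Of the 9 members, those that rose numbered 2 to 4 and those that fell 0 or 1 over all alternatives. The count that fell was 0 where only genes averaging 10 CPM or more entered, because Epcam was then not tested, and 1 in every other fit. Leaving out a library gave 3 to 4 members risen and 1 fallen, 4 to 13 genes of the wider lists risen and 3 to 11 fallen, and an Arhgap31 log2 fold change of −1.51 to −0.71. Of all tested genes, 3.95% to 19.9% rose and 6.28% to 21.9% fell over the same fits. Under the stricter filter of 10 CPM 2 genes of the wider lists fell, since fewer genes were tested (32 against 41). Of all genes tested under that filter 8.85% fell. The directions that turned were of uncalled genes: F11r was −0.01 with scaling by total count alone and −0.05 without shCdGAP replicate 1, and Cgnl1 was 0.05 without shCdGAP replicate 2 and 0.01 without shCTL replicate 1 (leave-one-out ranges −0.05 to 0.11 for F11r and −0.13 to 0.05 for Cgnl1). Leave-one-out ranges that crossed 0 were also those of Adam17 (−0.23 to 0.04), Arhgef2 (−0.06 to 0.02), Cxadr (−0.06 to 0.25), Psen2 (−0.58 to 0.16) and Ybx3 (−0.31 to 0.17). With the replicate block, 3 members rose and 1 fell, 9 genes of the wider lists rose and 5 fell, and the Arhgap31 log2 fold change was −1.41 (adjusted p = 0.125). Of all tested genes, 9.47% rose and 10.9% fell with the block. The block ended the call of Spint2 and made one of Cd68 (−1.61), and it changed no other call among the tested genes named. Calls of low genes such as Epcam, Clmp, Cldn6 and Cldn9 rest on few counts, and depth limits what can be said of Cldn3 and Cldn7. Epcam, Clmp, Cldn6 and Cldn9 reached the filter on low counts in every shCTL library but not in every shCdGAP library. The filter thus favoured a fall for them, as it favoured a rise for Crb3, where the groups were reversed.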
